A study of Homo sapiens with 3 samples.

Results

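The genes described here are 9 chemokines and homing receptors of myeloma, namely the receptors CXCR4, ACKR3, CCR1, CCR2, CCR10, CX3CR1 and S1PR1 and the ligands CXCL10 and CCL3. Every probe set whose annotation gives a single symbol, and that symbol a member (or CXCR7, the older name of ACKR3), was taken. This gave 15 of 54613 probe sets, for 8 of the 9 members, since no probe set carries CCL3 as its single symbol. RNA came from KMS11, an established human myeloma cell line with the t(4;14) translocation, which drives the histone methyltransferase gene MMSET (NSD2). Cells were collected 48 h after the start of lentiviral infection with polybrene. There were 3 groups of 1 array each, which received a hairpin against MMSET called shMMSET#2, a different hairpin against MMSET called shMMSET#4, or shLuc, the luciferase control hairpin. All 3 arrays therefore share the cell line, the translocation and the infection. With no replicate, every difference is described by its size on these arrays and has no p-value.

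Chemokines are small secreted proteins that bind receptors coupled to inhibitory G proteins and direct cells along their gradients. Normal and malignant plasma cells are held in the bone marrow largely through CXCR4, the receptor of stromal CXCL12, whereas sphingosine 1-phosphate, sensed by S1PR1, draws lymphocytes out of tissue into blood and lymph. CCL3, made by myeloma cells, is known to promote osteoclast formation through CCR1.

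Signals are the authors' MAS5 values per probe set, a linear brightness in arbitrary units, so a level is compared only within a probe set and never between genes. The exception is the summed signals of marker sets below, in which the brightest probe sets weigh most. A signal under 41.3, the 40th percentile of all signals, was set to that floor, and a ratio in which either signal was floored is a bound. A probe set was tested if it exceeded the array's median on at least 1 array, and it was called if the ratio reached 2-fold. Of the 15 member probe sets, 8 were above the floor on all 3 arrays, 5 on some arrays and 2 on none, and 9 passed the filter, covering 6 genes. As a yardstick of spread, the ratio of shMMSET#4 to shMMSET#2 was taken for probe sets of like signal (deciles of the mean). This measure includes whatever the hairpins truly do differently, and leaves out how the shLuc array differs from theirs. For 95% of probe sets the ratio lay within 1.87-fold in the brightest decile and within 2.50-fold in the second dimmest.

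Several facts of the arrays bear on these values. The 6 NSD2 probe sets had a median log2 ratio to shLuc of -1.33 with shMMSET#2, where 6 were lower, and -0.48 with shMMSET#4, where 5 were lower. All 11 plasma cell and t(4;14) myeloma markers were above the median signal on all 3 arrays. Their summed signals, with the targeted NSD2 included, were 103382, 141164 and 158627 for shMMSET#2, shMMSET#4 and shLuc. The marker JCHAIN weighed most in these sums, at 40928, 39387 and 55012 in the same order. With shMMSET#2, SLAMF7, IRF4 and PRDM1 were 5.85-fold, 2.86-fold and 2.29-fold lower than shLuc, and none was 2-fold higher. With shMMSET#4, none was 2-fold lower and MZB1 was 3.53-fold higher. Of the markers of other cells, CD2 and NKG7 (T and NK cells), CD14 (monocytes), PDGFRB (stroma) and VWF and CDH5 (endothelium) were under the floor on all 3 arrays. Above it on all 3 were CD3E of T cells (78.2 with shMMSET#2, 76.4 with shMMSET#4 and 104.8 with shLuc), ITGAM of myeloid cells (67.8, 60.2 and 75.4), COL1A1 of stroma (322, 180.3 and 197) and PECAM1 of endothelium, which plasma cells also express. CD3D, CD8A, GNLY, CSF1R, LYZ, COL1A2, DCN and LUM were above it on 1 or 2 arrays. Above the floor with shMMSET#2, shMMSET#4 and shLuc were 2, 1 and 3 of 4 monocyte and macrophage markers (summed signals 190.0, 88.5 and 249.5) and 1, 2 and 4 of 6 T and NK cell markers (182.2, 223.4 and 382.8). For 5 stromal markers the counts were 2, 1 and 4 (454.3, 234.9 and 426.3), and for 3 endothelial markers 1 on each array (321.7, 649.0 and 619.3). The median signal was 62.2 with shMMSET#2, 59.6 with shMMSET#4 and 77.6 with shLuc, although the trimmed means were alike. The 18 hybridisation control probe sets were all lower on both hairpin arrays than on the shLuc array, by a median log2 ratio of -0.30 with shMMSET#2 and -0.54 with shMMSET#4. The log2 difference between the 3' and 5' control probe sets of ACTB was 1.14, 1.14 and 1.70 in the same order of groups. The part of these array differences in the results below was not tested, apart from the rescaling whose values are given beside them.

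**Figure D1:**
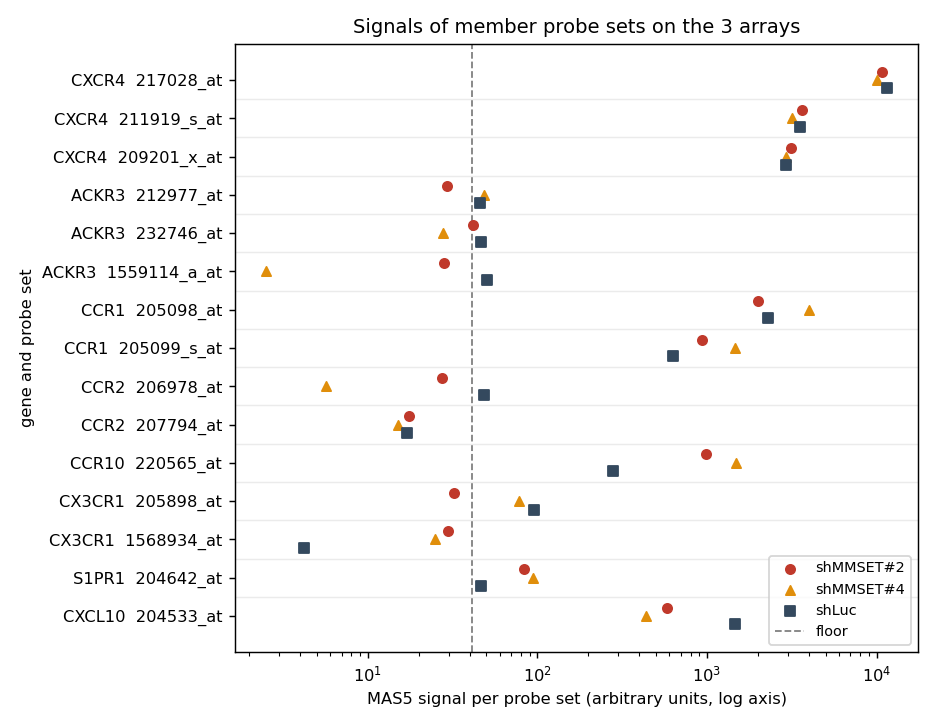
MAS5 signal (horizontal log axis, arbitrary units) of the 15 member probe sets on the shMMSET#2, shMMSET#4 and shLuc arrays, with 1 point per array and the floor of 41.3 as a dashed line. CCR10 is higher and CXCL10 lower on both hairpin arrays than on the shLuc array, the 3 CXCR4 probe sets overlap closely, and the ACKR3 and CCR2 probe sets scatter around or under the floor.

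The main homing receptor, CXCR4, had nearly the same signal with all 3 hairpins. CXCR4 binds CXCL12 from marrow stroma and is the target of the stem cell mobilising drug plerixafor. On its brightest probe set, 217028_at, the signal was 10772 with shMMSET#2, 10092 with shMMSET#4 and 11574 with shLuc. The second, 211919_s_at, gave 3618 with shMMSET#2, 3176 with shMMSET#4 and 3558 with shLuc. The third, 209201_x_at, gave 3131 with shMMSET#2, 2916 with shMMSET#4 and 2916 with shLuc. All 6 ratios to shLuc were within 1.15-fold, with log2 ratios between -0.10 and 0.10 for shMMSET#2 and between -0.20 and 0.00 for shMMSET#4. Their sign is not fixed: scaling the arrays to the same median signal turned the brightest probe set to 0.21 with shMMSET#2 and 0.18 with shMMSET#4. In RNA from a whole culture, fewer cells that express a gene and less RNA per cell cannot be told apart.

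RefSeq (GRCh38.p14) gives 3 start sites for CXCR4. The 250 bases before the outermost one are shown because this is the tested member whose signal varied least, and their makeup differs from that of the CXCL10 promoter printed further on. Capitals mark matches, on either strand, to the GC box GGGCGG, the TATA box TATAAA and an NRF-1 site (GCGC on either side of AT). NRF-1 is a known activator of this promoter.
CXCR4, chr2:136118150-136118399, minus strand: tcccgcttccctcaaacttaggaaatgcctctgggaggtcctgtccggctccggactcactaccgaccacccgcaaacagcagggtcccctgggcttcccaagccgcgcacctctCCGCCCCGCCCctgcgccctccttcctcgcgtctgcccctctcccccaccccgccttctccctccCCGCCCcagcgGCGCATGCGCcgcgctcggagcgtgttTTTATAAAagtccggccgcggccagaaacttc
The window holds 3 GC boxes, 135, 130 and 70 bases before the start, of which the first pair share a base, 1 NRF-1 match 59 bases before it, and 2 overlapping TATA matches on opposite strands, which begin 32 and 30 bases before it. Of 35093 windows of this length, 42.6% hold the GC box, 10.7% the TATA box and 1.03% the NRF-1 letters. The window is 68.0% G and C, with 24 CpG pairs.

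ACKR3, the atypical second receptor of CXCL12 that scavenges the ligand instead of signalling through G proteins, was at the edge of measurement. Its probe set 212977_at gave 29.3 with shMMSET#2, 48.2 with shMMSET#4 and 45.6 with shLuc. Probe set 232746_at gave 41.8, 27.6 and 46.5, and 1559114_a_at gave 28.0, 2.50 and 50.4, in the same order. None of the 3 exceeded the median signal on any array, so none was tested, and no order between hairpins can be read from them.

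CCR1, a receptor of CCL3 and CCL5 and a known target gene of the transcription factor MAF in myeloma, was highest with shMMSET#4 on both of its probe sets. On 205098_at the signal was 1994 with shMMSET#2, 3984 with shMMSET#4 and 2285 with shLuc. On 205099_s_at it was 930 with shMMSET#2, 1455 with shMMSET#4 and 629.8 with shLuc. The shMMSET#4 array was 1.74-fold and 2.31-fold above shLuc on these probe sets, and 2.00-fold (just under the threshold) and 1.56-fold above shMMSET#2. With shMMSET#2 the probe sets disagreed, at 1.15-fold lower and 1.48-fold higher than shLuc. Only the dimmer one with shMMSET#4 exceeded both the 2-fold threshold and the 2.16-fold spread of probe sets of like signal. Of all tested probe sets in its decile, 5.59% were at least 2-fold above shLuc with shMMSET#4. With equal array medians the brighter one passed the threshold at a log2 ratio of 1.18 with shMMSET#4, while its log2 ratio with shMMSET#2 turned to 0.12, against -0.20 as deposited.

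CCR2, the receptor of CCL2 on monocytes, was not measurable. Probe set 207794_at gave 17.5 with shMMSET#2, 15.1 with shMMSET#4 and 17.1 with shLuc, all under the floor, and 206978_at gave 27.2, 5.63 and 48.4. Neither exceeded the median signal on any array, so neither was tested.

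CCR10, the receptor of the epithelial chemokines CCL27 and CCL28 that guides antibody-secreting cells to mucosa and skin, was higher with both hairpins by the widest margin of the members. Its single probe set, 220565_at, gave 982 with shMMSET#2, 1474 with shMMSET#4 and 280.1 with shLuc. Both hairpin arrays were thus above the control array, by 3.51-fold with shMMSET#2 and 5.26-fold with shMMSET#4. Both folds were outside the 2.16-fold spread of probe sets of like signal. Of all tested probe sets in its decile, 5.87% were at least 2-fold above shLuc with shMMSET#2 and 5.59% with shMMSET#4. The shMMSET#4 array exceeded the shMMSET#2 array by 0.59 on the log2 scale, which is inside that spread. The log2 ratios of 1.81 and 2.40 spanned 1.81 to 2.13 for shMMSET#2 and 2.40 to 2.85 for shMMSET#4 over the 6 ways of processing the signals that were tried, of which the other floors cannot change so bright a probe set. The 3 genes on either side of CCR10 differed in their pattern. On one side, PLEKHH3 and TUBG2 were within 1.30-fold of shLuc on either hairpin array, and TUBG1, a gamma-tubulin gene, was higher by 1.16 with shMMSET#2 and 0.58 with shMMSET#4 on the log2 scale. On the other, the adjacent CNTNAP1 gave 136.8 with shMMSET#2, 20.3 with shMMSET#4 and 25.9 with shLuc, which is at least 3.31-fold higher with shMMSET#2, the array through which alone it passed the filter. EZH1, which encodes a Polycomb methyltransferase, lay 1.57-fold below shLuc with shMMSET#2 and 1.95-fold below it with shMMSET#4, and RAMP2 was under the floor on all 3 arrays. CCL28 was dim, with signals of 24.3 with shMMSET#2, 63.2 with shMMSET#4 and 55.0 with shLuc.

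CX3CR1, the fractalkine receptor of monocytes and cytotoxic lymphocytes, was dim. Probe set 205898_at gave 32.2 with shMMSET#2, 77.4 with shMMSET#4 and 96.2 with shLuc, which puts shMMSET#2 at least 2.33-fold and shMMSET#4 1.24-fold below shLuc. It passed the filter through the shMMSET#4 and shLuc arrays alone, and the first fold was inside the 2.50-fold spread of probe sets of like signal. Of all tested probe sets in its decile, 20.4% were at least 2-fold lower with shMMSET#2. The other probe set, 1568934_at, gave 29.5 with shMMSET#2, 24.9 with shMMSET#4 and 4.23 with shLuc, all under the floor.

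S1PR1, the receptor of sphingosine 1-phosphate that opposes retention by CXCR4, was somewhat higher with both hairpins but also dim. Probe set 204642_at gave 83.3 with shMMSET#2, 93.7 with shMMSET#4 and 46.3 with shLuc. The signals were 1.80-fold and 2.02-fold above shLuc, inside the 2.50-fold spread of probe sets of like signal. It passed the filter through the hairpin arrays alone, and a floor at the 60th percentile removed both differences. The log2 ratios of 0.85 with shMMSET#2 and 1.02 with shMMSET#4 became 1.10 and 1.33 with equal array medians. With quantile normalization they became 1.08 and 1.31. KLF2, the activator of S1PR1 in T cells, gave 1549 with shMMSET#2, 791 with shMMSET#4 and 2017 with shLuc, a difference past 2-fold only with shMMSET#4.

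Among ligands, CXCL10 was lower with both hairpins. CXCL10 is an interferon-inducible chemokine that attracts T cells through CXCR3. Its probe set, 204533_at, gave 579 with shMMSET#2, 437 with shMMSET#4 and 1468 with shLuc. Both hairpin arrays lay below the control array, by 2.54-fold with shMMSET#2 and 3.36-fold with shMMSET#4. Both folds were outside the 2.16-fold spread of probe sets of like signal, while the hairpin arrays differed by 1.32-fold. That spread is between the hairpin arrays and leaves out the shLuc array. Of all tested probe sets in the same decile, 6.45% were at least 2-fold below shLuc with shMMSET#2 and 5.62% with shMMSET#4. The log2 ratios of -1.34 and -1.75 stayed at or below -1.02 with shMMSET#2 and at or below -1.29 with shMMSET#4 over the 6 ways of processing, of which the other floors cannot change it.

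The 250 bases before the CXCL10 start site are shown because this ligand was lower with both hairpins, so the elements through which interferon and NF-kB are known to induce it can be set beside the levels of its inducers. Capitals mark matches on either strand to the interferon-stimulated response element (GAAA, 2 bases of any kind, GAAA) and to the NF-kB letters (GGGA, 4 bases of any kind, CC).
CXCL10, chr4:76023498-76023747, minus strand: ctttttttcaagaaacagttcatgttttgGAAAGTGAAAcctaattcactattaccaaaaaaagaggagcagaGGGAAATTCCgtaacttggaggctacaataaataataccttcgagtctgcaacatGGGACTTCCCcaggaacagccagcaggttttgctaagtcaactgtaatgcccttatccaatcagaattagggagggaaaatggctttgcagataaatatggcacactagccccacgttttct
The first capitals, 221 bases before the start, match the interferon element, which 3.02% of the 35093 windows hold. The others, 177 and 122 bases before it, match the NF-kB letters, which 22.6% of windows hold, and the nearer one matches on both strands. The window has 40.8% G and C and no match to the letters GGGCGG or TATAAA. Looser forms of these elements were not searched for. The CXCR4 window above holds neither the interferon nor the NF-kB letters. A different one of the 3 CXCR4 windows holds an NF-kB match, 54 bases before its own start site.

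Genes that relay the inducing signals were mostly near their shLuc level. Of 10 tested CXCL10 inducers, 9 were within 2-fold of shLuc with shMMSET#2, and 9 with shMMSET#4. Most genes on the arrays were that close too, so this count does not set the inducers apart. Among 13323 genes, calls with shMMSET#2 made up 10.6% (down) and 5.7% (up). For shMMSET#4 these shares were 8.94% and 6.72%. IRF1, the interferon-induced activator, gave 923 with shMMSET#2, 733 with shMMSET#4 and 919.6 with shLuc. NFKB1 gave 1053, 1007 and 1069 in the same order. RELA, the activating NF-kB subunit gene, was 1.25-fold and 1.51-fold lower, and IRF7 was 1.11-fold and 1.19-fold lower. Interferon receptor chains differed in direction, with IFNAR1 lower (2.69-fold for shMMSET#2, 1.71-fold for shMMSET#4) and IFNGR2 higher (1.81-fold for shMMSET#2, 2.38-fold for shMMSET#4). The values of IRF1 and NFKB1 are given for the printed motifs and were chosen after they were seen.

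The chromosomal neighbours of CXCL10 were also examined, because CXCL9, CXCL10 and CXCL11 form a cluster of ligands of CXCR3. CXCL11 gave 49.0 with shMMSET#2, 34.3 with shMMSET#4 and 99.7 with shLuc, which is 2.03-fold lower and at least 2.41-fold lower, but it passed the filter through the shLuc array alone, so a higher signal there was built into its entry. CXCL9 gave 26.4, 6.57 and 75.0 in the same order and was above no array's median signal. ART3, which starts between CXCL9 and CXCL10, was under the floor on all 3 arrays. Beyond CXCL9, SDAD1 was 1.12-fold below shLuc with shMMSET#2 and 1.28-fold below it with shMMSET#4. Beyond CXCL11, NUP54, a nuclear pore gene, was 1.63-fold and 1.07-fold below shLuc, and the next gene, SCARB2 of the lysosomal membrane, 2.42-fold and 2.88-fold below it. SCARB2 had signals of 8869 with shMMSET#2, 7468 with shMMSET#4 and 21494 with shLuc.

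For CCL3 there was no single-symbol probe set. Probe set 205114_s_at, annotated to CCL3 together with its copies CCL3L1 and CCL3L3, cannot be assigned to any of these genes. It was bright and gave 4022 with shMMSET#2, 3612 with shMMSET#4 and 3390 with shLuc, within 1.19-fold of shLuc.

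**Figure D2:**
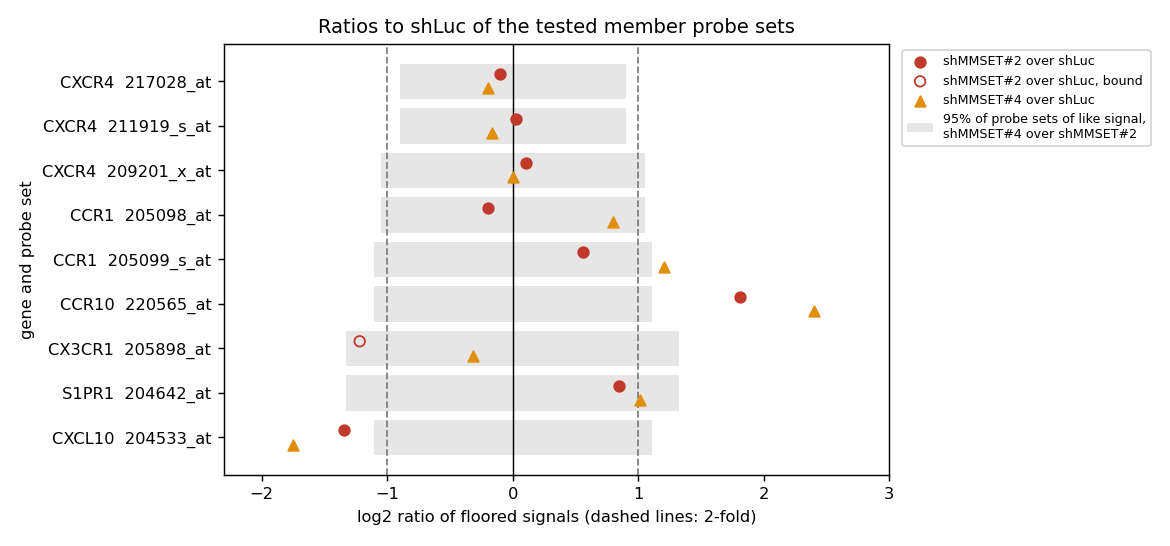
Log2 ratio to shLuc of the 9 tested member probe sets with shMMSET#2 (circles, open where the ratio is a bound) and shMMSET#4 (triangles). Grey bars hold 95% of ratios of shMMSET#4 to shMMSET#2 among probe sets of like signal, and dashed lines mark 2-fold. Only CCR10 and CXCL10 lie outside the bars with both hairpins, and the dimmer CCR1 probe set does so with shMMSET#4.

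Over the 9 tested member probe sets, 2 (CXCL10 and CX3CR1) were at least 2-fold lower and 1 (CCR10) at least 2-fold higher with shMMSET#2, against 11.9% lower and 5.66% higher among all 31485 tested probe sets. With shMMSET#4, 1 (CXCL10) was at least 2-fold lower and 3 (CCR10, S1PR1 and 1 probe set of CCR1) at least 2-fold higher, against 13.4% lower and 5.59% higher. The median log2 ratio of the members was 0.02 with shMMSET#2 and 0.00 with shMMSET#4, beside -0.09 and -0.12 over all tested probe sets. Between the hairpins, no member probe set was called with shMMSET#4 against shMMSET#2, where 5.25% of all probe sets were lower and 5.39% higher. With counts this small, the shares of members are not set apart from those backgrounds. Both comparisons with shLuc use the same control array, so their likeness is not independent support. With equal array medians, the median over all tested probe sets became 0.20 with shMMSET#2 and 0.23 with shMMSET#4. It turned the calls over all probe sets from 3731 lower and 1783 higher to 1785 lower and 3591 higher with shMMSET#2, and from 4224 and 1759 to 1859 and 3952 with shMMSET#4.

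Genes with the most similar pair of ratios were sought for the 3 members brightest on average, by the distance between log2 ratios over the 3 arrays. For CXCR4 they were NUP210, TSPOAP1-AS1 and FBXO11, at distances from 0.0043 to 0.0078, but 241 of 11628 candidate genes lay within 0.1. For CCR1 they were LRRN1, SIDT2 and SSR3, with 16 genes within 0.1. For CCR10 they were PLEKHO1, at 0.14, UBAC1, at 0.26, and SPTSSA, at 0.28, with none of the candidates within 0.1.

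The other genes of the system were counted on the brightest probe set of each gene, where 10.6% of 13323 tested genes were at least 2-fold lower and 5.7% higher with shMMSET#2, and 8.94% and 6.72% with shMMSET#4. Of 40 other chemokine ligands 10 were tested, and 9 of these lay in the 3 dimmest deciles. With shMMSET#2, 3 were at least 2-fold lower and none was higher. With shMMSET#4, 5 were lower and none was higher. Of the 10, 5 (CXCL6, CXCL11, CXCL12, CXCL16 and CX3CL1) exceeded the median on the shLuc array alone, and so entered only through the array where they were high. They made up all 3 of the lower genes with shMMSET#2 and 4 of the 5 with shMMSET#4, so nothing is read from the counts or the medians of this list. The list medians were -0.74 and -0.87, beside -0.04 and -0.02 over all tested genes and -0.34 and -0.38 over probe sets of the second dimmest decile. A floor at the 60th percentile set both list medians to 0. CXCL6, a neutrophil attractant, gave 8.54 with shMMSET#2, 59.2 with shMMSET#4 and 136 with shLuc. CXCL16, the ligand of CXCR6, gave 13.5, 10.3 and 93.1. CX3CL1, or fractalkine, the ligand of CX3CR1, gave 43.8, 22.2 and 83.8 for shMMSET#2, shMMSET#4 and shLuc. CXCL12 itself was dim, at 51.5, 58.4 and 95.7. The bright exception, chosen after its values were seen, was CCL5, a ligand of CCR1, which gave 2524 with shMMSET#2, 2015 with shMMSET#4 and 1796 with shLuc and was within 1.41-fold of shLuc.

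Of 17 other chemokine receptors 5 were tested, all in the 3 dimmest deciles, and 1 of them was above the floor on all 3 arrays. With shMMSET#2, 3 were at least 2-fold lower, and with shMMSET#4, 2. CXCR1, XCR1 and ACKR2 exceeded the median on the shLuc array alone. They account for 2 of the 3 lower genes with shMMSET#2 and both with shMMSET#4, so these counts too were favoured by the filter. CXCR1, an interleukin 8 receptor of neutrophils, lay at least 2.88-fold below shLuc on both hairpin arrays, and ACKR2, a scavenger of inflammatory CC chemokines, at least 1.99-fold below it. XCR1, the receptor of XCL1 on dendritic cells, gave 35.7 with shMMSET#2, 14.1 with shMMSET#4 and 88.5 with shLuc. CCR9, the gut homing receptor, lay 2.25-fold below shLuc with shMMSET#2 and 1.42-fold below it with shMMSET#4. CXCR3, the receptor of CXCL10, gave 30.1, 80.5 and 53.3 for shMMSET#2, shMMSET#4 and shLuc.

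The signalling list was brighter, with 27 of 30 tested genes above the floor on all 3 arrays. With shMMSET#2, 3 were at least 2-fold lower and 3 higher. With shMMSET#4, 1 was lower and 5 were higher, and the list medians were 0.08 and 0.15. Of the higher genes with shMMSET#4, GRK3 and PTK2 exceeded the median on the shMMSET#4 array alone, so their entry favoured that direction. GNAI3, an inhibitory G protein subunit gene through which these receptors signal, gave 4270 with shMMSET#2, 3141 with shMMSET#4 and 1506 with shLuc, which is 2.84-fold and 2.09-fold higher. No such rise on both hairpin arrays was seen for GNAI1 and GNAI2, the other inhibitory subunit genes of this list. In the same order of arrays, GNAI2 gave 343, 876 and 772, and GNAI1 gave 633, 376 and 740. VAV1, an exchange factor for Rac, was 2.30-fold and 2.42-fold higher, and PIK3CG, the lipid kinase driven by G proteins, 4.11-fold and 1.96-fold higher. RGS13, a brake on G protein signalling, lay at least 2.51-fold below shLuc on both hairpin arrays, but passed the filter through the shLuc array alone. RGS1, a brake that restrains responses to CXCL12, was named after its values were seen and gave 10250, 12906 and 21508 for shMMSET#2, shMMSET#4 and shLuc.

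None of 11 CXCR4 partners and sorting genes was past 2-fold with either hairpin, and their list medians were 0.18 with shMMSET#2 and 0.10 with shMMSET#4. ITCH, the ubiquitin ligase that sends CXCR4 to lysosomes, gave 1600 with shMMSET#2, 1769 with shMMSET#4 and 2839 with shLuc. STAM, an endosomal sorting protein gene, was 1.71-fold and 1.85-fold higher. CD164, a sialomucin that associates with CXCR4, was 1.41-fold and 1.26-fold higher, and CD74, a receptor of MIF, 1.28-fold and 1.25-fold higher.

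Of 7 other tested genes of the sphingosine 1-phosphate pathway, 2 were at least 2-fold lower and 1 was higher with shMMSET#2, and 1 was lower with shMMSET#4, with list medians of 0.02 and 0.20. SPNS2, the exporter of the lipid, gave 58.8 with shMMSET#2, 116.7 with shMMSET#4 and 166.2 with shLuc. SPHK1, a kinase that makes it, was under the floor with shLuc, and gave 84.8 with shMMSET#2, the array through which alone it passed the filter, and 55.2 with shMMSET#4. SGPP1, a phosphatase that degrades it, was 1.64-fold and 1.18-fold higher.

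Of 8 tested homing adhesion molecules, 1 was at least 2-fold lower and 1 was higher with each hairpin, with list medians of -0.42 and -0.45, which equal array medians reduced to -0.10 and -0.07. ITGAL, the alpha chain of LFA-1, gave 720 with shMMSET#2, 678 with shMMSET#4 and 298 with shLuc. ICAM1, the ligand of LFA-1, gave 1270 with shMMSET#2, 1670 with shMMSET#4 and 2717 with shLuc. MADCAM1, the gut addressin, was 1.79-fold and 2.46-fold lower, and ITGA4, a chain of the VCAM1 receptor VLA-4, 1.54-fold and 1.65-fold lower. Over all 7 lists, 13 of 81 genes were at least 2-fold lower and 5 higher with shMMSET#2, and 10 and 7 with shMMSET#4. Of the lower genes, 6 with shMMSET#2 and 7 with shMMSET#4 had passed the filter through the shLuc array alone. Of the higher genes, SPHK1 with shMMSET#2, and GRK3 and PTK2 with shMMSET#4, had passed it through that hairpin array alone. Scaled to the same median signal, the lists gave 5 lower and 12 higher with shMMSET#2. They gave 4 lower and 14 higher with shMMSET#4, so the balance of the lists follows the scaling. Quantile normalization gave 7 lower and 6 higher, and 5 lower and 8 higher. Scaling to the hybridisation controls gave 5 lower and 9 higher, and 4 lower and 16 higher.

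**Figure D3:**
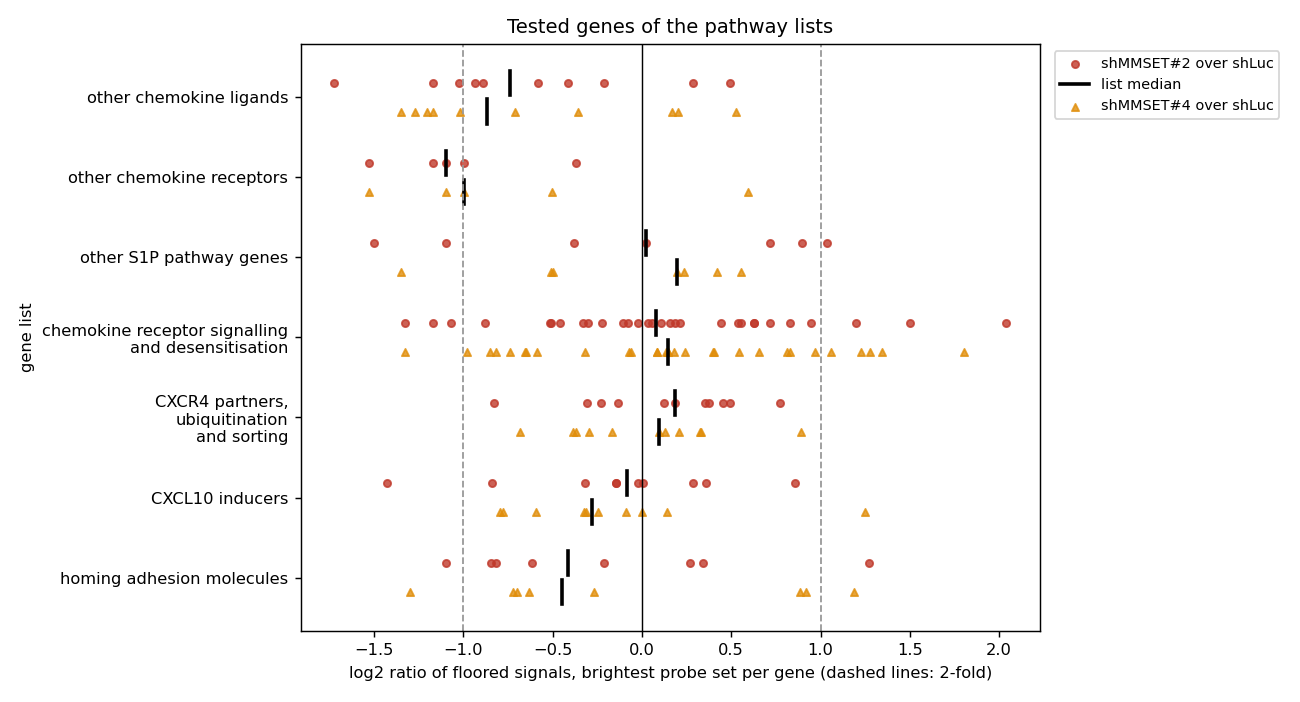
Log2 ratio to shLuc (horizontal axis) of each tested gene of the 7 pathway lists with shMMSET#2 (circles) and shMMSET#4 (triangles), with list medians as black bars and dashed lines at 2-fold. The dim ligands and receptors, of which 8 of 15 passed the filter through shLuc alone, lie mostly left of 0, and the CXCR4 partners all lie within 2-fold.

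**Figure D4:**
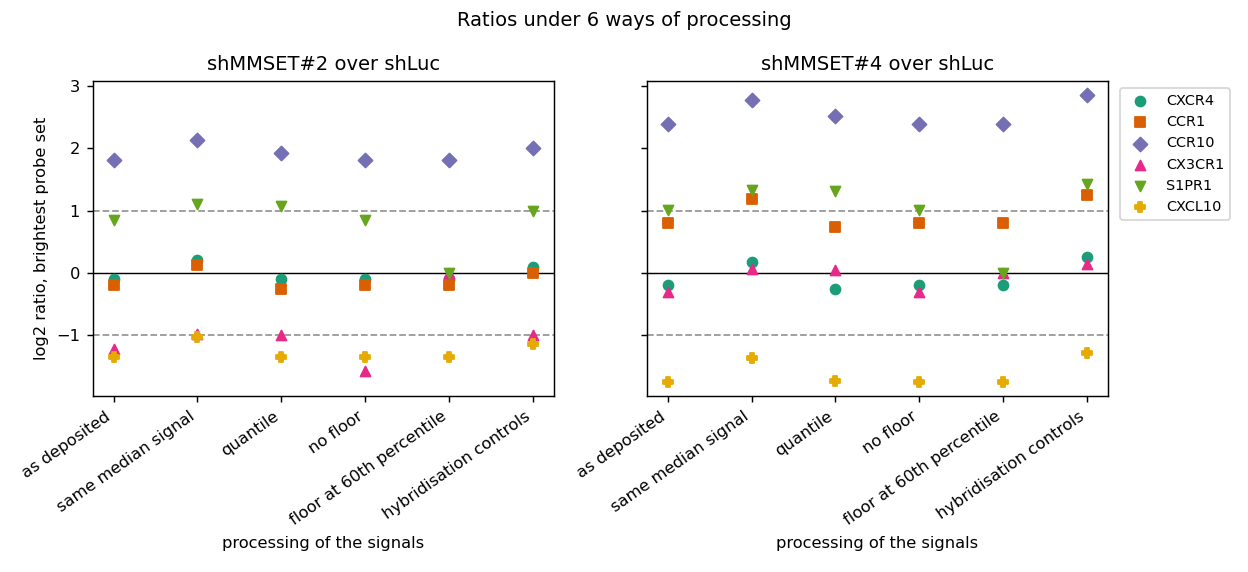
Log2 ratio to shLuc of the brightest tested probe set of 6 members under 6 ways of processing the signals, with shMMSET#2 on the left and shMMSET#4 on the right, and dashed lines at 2-fold. CCR10 stays above 2-fold and CXCL10 below it in each, whereas CXCR4 changes sign, and S1PR1 and CX3CR1 go to 0 with the higher floor.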

How the data were processed

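The deposited table holds 1 column per array, each matched to its sample by accession, with 54675 probe sets. The authors deposited linear MAS5 intensities, with MAS5 named per the submitters' processing notes, while the design text adds GeneSpring. For versions and settings the sources used here give nothing. An HG-U133 A array is named there, but the probe sets are those of HG-U133 Plus 2.0. The 2% trimmed mean was 500.1 on each array, so no further scaling was done.

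Leaving out 62 control probe sets, 41091 had 1 symbol, 1801 had several and 11721 were unnamed here. Of those with 1 symbol, 41037 were matched by Entrez identifier to RefSeq (GRCh38.p14) and took its symbol, whether or not it differed. Signals were floored at 41.3, the 40th percentile, and log2-transformed. Of 54613 probe sets 31485 were tested, those above the array median on at least 1 array. Genes were taken on their brightest probe set. The named genes were every member, NSD2, up to 4 genes per list with the largest smaller ratio of like sign with both hairpins, and the nearest genes by ratio. Outside this rule, chromosomal neighbours (the 3 genes on either side of CCR10 and CXCL10) and cell markers were named after their values were seen. So were CXCL12, CXCR3, CCL28, CCL5, RGS1, IRF1, NFKB1, GRK3, PTK2, GNAI1 and GNAI2. The members and lists were chosen with earlier results of these data known. Promoter windows are RefSeq's, found for 7 members. The shares of windows with a motif leave out 1 chromosome, which holds no member, and repeated windows of a gene. Steps were tested on simulated data with less noise than these arrays and with large changes set only in bright probe sets. That test does not bear on dim probe sets or on changes near 2-fold. Precision is limited by there being 1 array per group. The tools were matplotlib 3.10.9, scipy 1.17.1, pandas 2.3.3 and numpy 2.4.6 under Python 3.11.15. Alternatives were other scalings, floors, filters, probe sets and thresholds.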

Additional observations from a re-analysis of the deposited data

Results flagged for a closer look

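CCR1 stood out because its brighter probe set, 205098_at, moved in opposite directions with the hairpins, at a log2 ratio to shLuc of -0.20 with shMMSET#2 and 0.80 with shMMSET#4. The difference was not tested, as each hairpin has 1 array, and the dimmer CCR1 probe set was higher with both. The CXCR4 probe set 211919_s_at also had opposite signs, at 0.024 with shMMSET#2 and -0.16 with shMMSET#4, both close to 0, and this difference was not tested either. The probe set shared by CCL3, CCL3L1 and CCL3L3 lies outside the single-symbol members and had signals of 4022 with shMMSET#2 and 3612 with shMMSET#4, both above the shLuc value of 3390.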

How the results depend on the processing

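CCR10 remained at least 2-fold higher and CXCL10 at least 2-fold lower than shLuc with both hairpins under the 3 rescalings. The other floors and filters, and leaving out _x_at and _s_at probe sets, cannot change these bright probe sets. The exception was the 3-fold threshold, which CXCL10 missed with shMMSET#2. The number of member probe sets past 2-fold lower with shMMSET#2, 2 as reported, was 1 with equal medians or a floor at the 60th percentile and 0 at 3-fold, and the number higher, 1 as reported, was 2 with equal medians, quantile normalization or a 1.5-fold threshold. With shMMSET#4 the 3 higher became 4 with equal medians, scaling to the hybridisation controls or a 1.5-fold threshold. They became 2 with a floor at the 60th percentile or without _x_at and _s_at probe sets, and 1 at 3-fold. For shMMSET#4 against shMMSET#2, where 0 were higher, there were 2 with equal medians, 1 with quantile normalization, 1 with no floor, 4 at 1.5-fold and 2 with scaling to the hybridisation controls, an alternative chosen after seeing the data. In the pathway lists, the 13 lower with shMMSET#2 became 5 with equal medians, 7 with quantile normalization, 5 with the higher floor and 5 with the hybridisation controls, and the 5 higher became 12 with equal medians and 9 with the hybridisation controls. The 10 lower with shMMSET#4 became 4, 5, 1 and 4 in the same order, and the 7 higher became 14 and 16. The cause was not tested. Of 54 member ratios recomputed under the rescalings, 43 moved by less than the spread of a single array and 11 by more. Scaling to equal medians or to the hybridisation controls multiplies a whole array by 1 constant. It shifts all member ratios off the floor by the same amount, so the 54 are not separate checks. Of 36 member ratios under the other floors, 31 were identical by construction and 3 moved by more than the spread of a single array. No paired analysis was possible because each group has 1 array. Dim members (ACKR3, CCR2, CX3CR1 and S1PR1) are limited by signal near the floor.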
